A study of Mus musculus with 2 samples.

Results

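Cycling T cells are the T cells of a tumour infiltrate that carry the transcripts of a dividing cell. Here they were taken from single-cell RNA sequencing of CD45+ immune cells sorted out of B16F10 tumours, a transplantable mouse melanoma, as cells with at least 2 UMIs of Cd3d, Cd3e and Cd3g together, at least 3 UMIs of Mki67, Top2a and Birc5 together, at most 1 UMI of Cd79a, Ms4a1 and Csf1r together and at most 20 UMIs of Cd74 and H2-Aa together. A UMI is a molecular tag that marks 1 captured RNA molecule. The rule found 101 cells in the KO library and 291 in the WT library, 392 of the 14624 cells kept after filtering.

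The KO mice carried Lyz2-Cre with floxed Kcnj2 (Lyz2-Cre-Kcnj2f/f, also called Kcnj2CKO in the labels), and the WT mice carried floxed Kcnj2 without Cre (Kcnj2f/f). Both received B16F10 cells subcutaneously, and tumours were taken on day 10, so every cell described here comes from a tumour-bearing mouse with floxed alleles. Each library pooled the tumours of 3 mice, and there was 1 library per genotype, with no replicate, so no test between genotypes is possible and every interval below is a 95% interval for counting error only. The stated purpose of the study was to see how Kir2.1, the potassium channel that Kcnj2 encodes, bears on the tumour microenvironment. Cre from the Lyz2 locus is active in myeloid cells and not meant to act in T cells. The labels do not say which part of Kcnj2 was deleted, so 3' tags need not check the deletion. Over all kept cells Kcnj2 had 117 UMIs in the KO library (2.09 CPM, UMIs scaled to a total of 1000000) and 177 UMIs in the WT library (3.26 CPM). No Kcnj2 UMI was found in any of the 101 KO or 291 WT cycling T cells.

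When a T cell recognises its antigen it leaves quiescence, grows, copies its DNA in S phase and divides in mitosis, and in tumours the dividing cells are the ones that renew the effector pool. Mki67 encodes the chromosome-coating protein Ki-67, Top2a the topoisomerase that untangles replicated DNA, and Birc5 the mitotic protein survivin. Genes for DNA synthesis are switched on by E2F factors ahead of S phase, whereas genes for mitosis peak later and share promoter elements known as CHR and CCAAT boxes.

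The 120 bases before the start of 7 genes chosen because they hold such letters are shown. They come from the RefSeq table for GRCm38.p6, 5′ to 3′ on the gene's own strand. All were higher in cycling than in non-cycling CD8 cells, Mki67 by definition. Kif11 is the only one among the 12 highest by that ratio. Capitals mark the CHR core TTTGAA (read on the other strand as TTCAAA), the CCAAT box (read there as ATTGG) and the E2F-type site TTCCCGC (read there as GCGGGAA). The first 4 belong to genes of mitosis: Mki67, a gene of the rule, Kif11, a spindle motor, Cdk1, the kinase that drives entry into mitosis, and Cdc20, which activates the complex that ends it. They lie at Mki67 chr7:135716380-135716499 on the minus strand, Kif11 chr19:37376262-37376381 on the plus strand, Cdk1 chr10:69352913-69353032 on the minus strand and Cdc20 chr4:118437344-118437463 on the minus strand.
Mki67: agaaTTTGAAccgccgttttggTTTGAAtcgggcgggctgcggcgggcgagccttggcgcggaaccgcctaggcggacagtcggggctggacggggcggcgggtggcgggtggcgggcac
Kif11: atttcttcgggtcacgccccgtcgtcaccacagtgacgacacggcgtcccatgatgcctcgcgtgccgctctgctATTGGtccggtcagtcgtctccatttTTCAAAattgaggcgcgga
Cdk1: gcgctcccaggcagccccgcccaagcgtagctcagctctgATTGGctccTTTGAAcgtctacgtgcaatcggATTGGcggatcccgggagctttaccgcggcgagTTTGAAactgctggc
Cdc20: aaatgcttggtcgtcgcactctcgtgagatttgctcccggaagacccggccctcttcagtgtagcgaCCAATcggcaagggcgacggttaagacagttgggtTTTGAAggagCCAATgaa

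The other 3 belong to genes of DNA synthesis: Rrm1, a subunit of ribonucleotide reductase, Uhrf1, which keeps DNA methylation through replication, and Prim1, the primase that starts DNA strands. They lie at Rrm1 chr7:102441575-102441694, Uhrf1 chr17:56303217-56303336 (the first of its listed starts) and Prim1 chr10:128015095-128015214, all on the plus strand. The bases before the other listed Uhrf1 start, chr17:56304193-56304312, hold 1 CCAAT match and 0 TTCCCGC matches and are not shown. In Prim1 the TTCCCGC and CCAAT matches overlap.
Rrm1: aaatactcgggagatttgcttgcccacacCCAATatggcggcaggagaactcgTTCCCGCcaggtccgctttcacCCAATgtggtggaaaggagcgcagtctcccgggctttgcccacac
Uhrf1: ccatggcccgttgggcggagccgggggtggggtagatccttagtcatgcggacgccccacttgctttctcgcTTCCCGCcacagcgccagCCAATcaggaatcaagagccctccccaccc
Prim1: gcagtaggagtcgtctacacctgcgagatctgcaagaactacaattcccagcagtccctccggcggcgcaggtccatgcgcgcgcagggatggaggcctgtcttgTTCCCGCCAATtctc

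Over the whole promoter window, from 250 bases before to 50 bases after the start and on both strands, TTTGAA was present in 77.8% of the promoters of the mitosis list (35 of 45, for 43 of 52 genes matched), in 8.33% of those of the DNA replication list (3 of 36, for 31 of 40 genes) and in 17.9% of all 32851 promoters. TTCCCGC was present in 2.22% (1 of 45) of the mitosis, 38.9% (14 of 36) of the DNA replication and 4.6% of all promoters. CCAAT was in 77.8% of the mitosis, 55.6% of the DNA replication and 37.4% of all promoters. The 7 genes were chosen because they hold such a match, and a match describes the letters in this window, not a binding site or a cause.

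The KO library held 6356 barcodes and 57047535 UMIs and the WT library 9677 barcodes and 55219440 UMIs. The kept cells numbered 5688 in the KO library and 8936 in the WT library, with medians of 8026 UMIs (KO) and 4398.5 UMIs (WT). Both libraries shared 63 barcodes, among them 2 KO and 3 WT cycling T cells. Of the cycling T cells, 1 KO and 8 WT barcodes also held 10 or more UMIs of the pigment cell genes Mlana, Pmel, Dct and Tyrp1 (3503 UMIs in the KO barcode and 133 to 3146 in the WT barcodes, against at most 2 in every other cycling T cell). These 9 barcodes had up to 197015 UMIs each and held 11.1% of the UMIs of the KO and 29.5% of those of the WT cycling T cells. Whether a melanoma cell was captured with a T cell or in place of one cannot be told apart there. Levels of genes and gene lists below leave these 9 barcodes out, a choice made after seeing the data, while the counts of cells keep them unless stated.

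The levels of the label's markers are given as a description only, because these genes chose the cells. The medians per cycling T cell were 11 Cd3d UMIs in the KO library and 8 in the WT library, 8 (KO) and 4 (WT) for Cd3e, 4 in each for Mki67, 4 (KO) and 3 (WT) for Top2a and 1 in each for Birc5. Without the 9 melanoma-bearing barcodes, Mki67 stood at 761.6 CPM in KO against 786.4 CPM in WT cells, Top2a at 801.3 (KO) and 739.6 (WT) CPM and Birc5 at 278.9 (KO) and 301.6 (WT) CPM. Cells just inside the rule, with exactly 3 UMIs of the 3 cycling genes, numbered 22 in the KO and 64 in the WT library, at medians of 9 (KO) and 11 (WT) UMIs of the mitosis list. Cells just outside it, with exactly 2, numbered 58 in the KO and 165 in the WT library, at medians of 8 (KO) and 9 (WT) UMIs of that list, so the rule cuts through a continuous range. T cells without any UMI of the 3 genes, 702 in KO and 1982 in WT, are called non-cycling below.

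Markers of other cell types were looked for without the melanoma-bearing barcodes. The melanoma gene Sox10 was at 0 in both libraries, and the dendritic cell genes Clec9a and Xcr1 had 1 and 0 UMIs in KO and 4 and 1 UMIs in WT. Csf1r and the B cell genes Cd79a and Ms4a1 were limited by the rule itself and say nothing here. The macrophage and monocyte list summed to 380 CPM in KO against 656 CPM in WT cycling T cells, with 8 of its 11 measured genes lower in KO, among them Lyz2 (18 KO and 159 WT UMIs) and Tyrobp (93 KO and 288 WT UMIs). The NK cell list, which shares Gzma and Prf1 with T cells, summed to 486 CPM in KO against 975 CPM in WT, with 6 of 9 lower and 1 higher, and its defining gene Ncr1 had 2 KO and 36 WT UMIs. These UMIs come from 100 KO and 283 WT cells. The share of cells with a UMI differed by less than the counting error at the cells' own depth. Its log2 ratio was -0.43 (-1.30 to 0.35) for Lyz2 and -0.31 (-3.61 to 2.09) for Ncr1. Lyz2 is also the locus that carries Cre in the KO mice, and the part of this in its level was not tested. The neutrophil list summed to 3.15 CPM in KO against 25.9 CPM in WT, the B cell list to 119 CPM in KO against 160 CPM in WT, and the dendritic cell list to 899.7 CPM in KO against 686 CPM in WT, with Ccr7 higher and Itgax and Siglech lower of 9 measured. Of all genes with at least 20 UMIs in these cells, 11.2% were higher and 13.2% lower in KO. The part of these cell types in the differences below was not tested. B cells, defined by their own markers, served as the background for UMIs of free RNA, and 1.47% of KO and 1.40% of WT B cells reached 3 UMIs of the 3 cycling genes. Lyz2 UMIs were found in a smaller share of KO than of WT B cells, at a log2 ratio of -1.53 (-2.35 to -0.81).

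The first question is whether T cells cycled to the same extent in both libraries. The difference was smaller than the counting error: 9.81% of KO T cells (8.06 to 11.8, 101 of 1030) and 9.90% of WT T cells (8.84 to 11.04, 291 of 2940) were cycling, a log2 ratio of -0.01 (-0.35 to 0.32). Thinned to 3000 UMIs per cell, which left out 172 KO and 630 WT T cells, the shares were 5.59% (4.15 to 7.34) of 859 KO cells and 6.25% (5.31 to 7.29) of 2385 WT cells, a log2 ratio of -0.16 (-0.66 to 0.32). The whole rule was applied to the thinned counts, so T cells by thinned counts are not a subset of T cells at their own depth. Without the melanoma-bearing barcodes the log2 ratio was 0.01 (-0.33 to 0.34). Intervals of this width allow differences of up to about these bounds in either direction.

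Because T cells made up 18.1% of the kept KO cells (17.1 to 19.1) and 32.9% of the kept WT cells (31.9 to 33.9), cycling T cells were a smaller part of the KO infiltrate. They were 1.78% of the kept KO cells (1.45 to 2.15) and 3.26% of the kept WT cells (2.90 to 3.65), a log2 ratio of -0.87 (-1.22 to -0.54). Of all kept cells with 3 or more UMIs of the 3 cycling genes, 26.6% were cycling T cells in the KO library (101 of 379) and 48.3% in the WT library (291 of 603).

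The second question is which T cells were dividing. Most cycling T cells were CD8 cells, with at least 1 Cd8a or Cd8b1 UMI and no Cd4 UMI, but Cd4 cells, and among them cells with Foxp3, the transcription factor of regulatory T cells, took a larger share in the KO library at the cells' own depth. CD8 cells made up 60.4% of KO cycling T cells (50.2 to 70.0, 61 cells) and 76.3% of WT cycling T cells (71.0 to 81.1, 222 cells). Cd4 cells without a CD8 UMI made up 21.8% (14.2 to 31.1, 22 cells) in KO and 9.62% (6.49 to 13.6, 28 cells) in WT. Cells with both kinds of UMI were 6.93% in KO and 8.93% in WT, and cells with neither were 10.9% in KO and 5.15% in WT. For CD8 the interval of the log2 ratio reached past 0, at -0.34 (-0.77 to 0.08), and for Cd4 it did not, at 1.18 (0.30 to 2.04). With the rule applied after thinning to 3000 UMIs, the Cd4 share was 12.5% in KO (6 of 48) and 4.70% in WT (7 of 149), and its interval then reached past 0, at 1.41 (-0.44 to 3.21). Among cycling T cells chosen at their own depth and thinned afterwards, any Cd4 UMI was found in 10.5% of KO and 12.1% of WT cells, a log2 ratio of -0.21 (-1.40 to 0.87).

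Foxp3 UMIs were found in 16.8% of KO cycling T cells (10.1 to 25.6, 17 cells) and 3.78% of WT cycling T cells (1.90 to 6.66, 11 cells), a log2 ratio of 2.15 (0.98 to 3.39). With the rule applied after thinning to 3000 UMIs the shares were 16.7% (8 of 48) in KO and 2.68% (4 of 149) in WT. Cells with both Cd4 and Foxp3 were 9.90% of KO cycling T cells (10 cells) and 1.03% of WT cycling T cells (3 cells), whereas Cd4 cells without Foxp3 were 11.9% (12 cells) in KO and 8.59% (25 cells) in WT. In B cells, at median depths of 3333 UMIs (KO) and 3010 UMIs (WT), Foxp3 was seen in 0 of 339 KO and 1 of 1075 WT cells, Cd4 in 0.590% of KO and 0.651% of WT cells, and Cd8a or Cd8b1 in 1.47% of KO and 7.35% of WT cells. The cycling T cells were deeper, at medians of 11777 UMIs in KO and 7448 UMIs in WT.

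The same shift was present in T cells that were not cycling. Among them, CD8 cells were 40.2% in KO (36.5 to 43.9) and 62.8% in WT (60.6 to 64.9), Cd4 cells 26.9% in KO and 14.9% in WT, and Foxp3 cells 7.12% in KO (5.33 to 9.28) and 2.02% in WT (1.45 to 2.74). Set against its own T cell subset, the share of cells in cycle differed by less than the counting error. Of CD8 cells 14.2% were cycling in KO (11.03 to 17.8, 61 of 430) and 11.7% in WT (10.3 to 13.2, 222 of 1898), and after thinning 6.55% in KO and 7.07% in WT. Of cells with Foxp3, 14.9% were cycling in KO (8.93 to 22.8, 17 of 114) and 15.9% in WT (8.24 to 26.7, 11 of 69), a log2 ratio of -0.10 (-1.27 to 1.14). Of Cd4 cells without Foxp3, 5.61% were cycling in KO and 6.10% in WT.

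**Figure D1:**
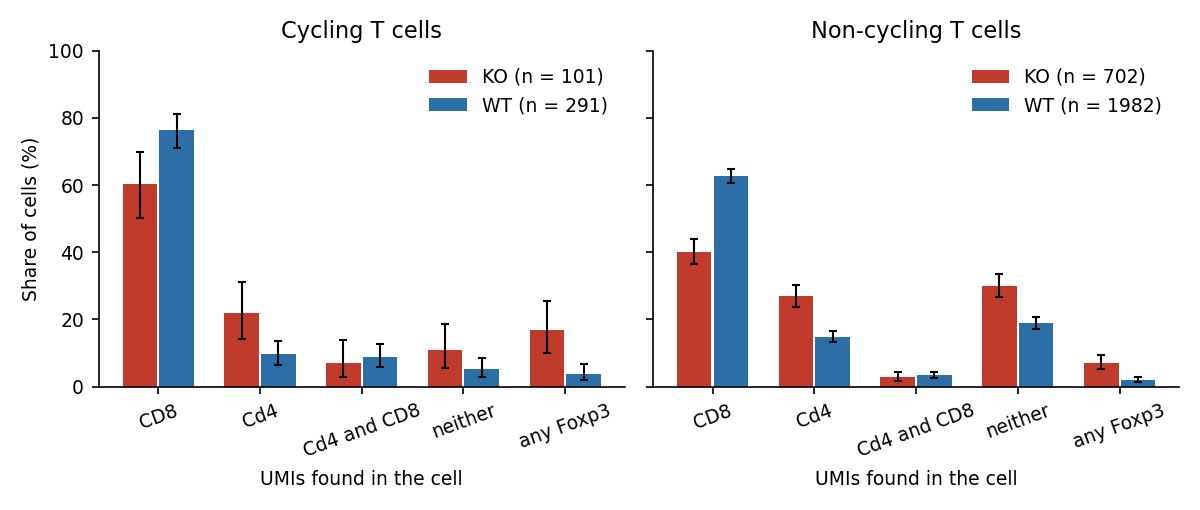
Share of cells (%, bars, with exact 95% counting intervals) with CD8, Cd4, both, neither or any Foxp3 UMIs among cycling T cells (left panel) and non-cycling T cells (right panel), KO in red left of WT in blue. In both panels KO has fewer CD8 cells (60.4% against 76.3% of cycling T cells) and more Foxp3 cells (16.8% against 3.78%).

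What the cycling CD8 cells shared could be read in each library alone by setting them against non-cycling CD8 cells of the same library. Cell cycle genes led, which follows from the choice of cells and is given as a description. Pclaf, a partner of the replication clamp, was at 514 CPM in cycling and 3.19 CPM in non-cycling KO cells and at 652 (cycling) and 7.17 (non-cycling) CPM in WT cells. Cdk1 was at 119 (cycling) and 5.75 (non-cycling) CPM in KO and 140 (cycling) and 2.17 (non-cycling) CPM in WT, Kif11 at 125 (cycling) and 4.47 (non-cycling) CPM in KO and 138 (cycling) and 4.17 (non-cycling) CPM in WT, and Cdc20 at 42.5 (cycling) and 1.92 (non-cycling) CPM in KO and 53.9 (cycling) and 2.33 (non-cycling) CPM in WT. Among the genes of DNA synthesis, Rrm1 was at 184 (cycling) and 21.1 (non-cycling) CPM in KO and 167 (cycling) and 19.8 (non-cycling) CPM in WT. Uhrf1 was at 118 (cycling) and 5.11 (non-cycling) CPM in KO and 93.6 (cycling) and 4.83 (non-cycling) CPM in WT, and Prim1 at 77.3 (cycling) and 10.9 (non-cycling) CPM in KO and 106 (cycling) and 12 (non-cycling) CPM in WT. Mki67 is at 0 in non-cycling cells by their definition.

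Over all genes, those of the cell cycle included, 869 of 2866 with a mean of at least 50 CPM were at least 1.5-fold higher in cycling than in non-cycling CD8 cells of the KO library (30.3%) and 443 were lower (15.5%). In the WT library 456 of 2834 were higher (16.1%) and 175 lower (6.18%). The WT count rests on leaving out the melanoma-bearing barcodes: with them kept, 1231 genes were past 1.5-fold in WT and 1312 in KO. Of 2612 genes measured in both libraries, 390 were higher in both, 134 lower in both, and 0 went opposite ways.

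Genes of naive and memory T cells were lower in cycling CD8 cells. Of the 15 measured genes of that list, 11 were lower and 3 higher in KO, with a median log2 ratio of -1.37, and 12 were lower and 3 higher in WT, with a median of -1.16. The medians over all genes with at least 20 UMIs were 0.12 in KO and 0.05 in WT, with 28.9% (KO) and 19.5% (WT) of all genes higher and 20.2% (KO) and 13.7% (WT) lower, and every list below is read against these. Il7r, the survival receptor for interleukin-7, was at 59.0 CPM in cycling and 401 CPM in non-cycling KO cells (-2.77) and at 78.2 (cycling) and 243 (non-cycling) CPM in WT cells (-1.64). Tcf7, the transcription factor TCF-1 of memory and stem-like cells, was at 38.7 (cycling) and 199 (non-cycling) CPM in KO (-2.37) and 53.9 (cycling) and 142 (non-cycling) CPM in WT (-1.39). Bcl2, which protects from cell death, was at 48.3 (cycling) and 247 (non-cycling) CPM in KO (-2.35) and 39.1 (cycling) and 96.2 (non-cycling) CPM in WT (-1.30). The 3 that were higher in cycling cells of both libraries were the chemokine Xcl1, the chemokine receptor Ccr7 and the transcription factor Myb.

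The list of cell cycle inhibitors and quiescence genes had 12 of 17 lower and 3 higher in KO (median -1.02) and 6 lower and 3 higher in WT (median -0.49). Klf2, a factor that keeps T cells at rest, was at 22.2 (cycling) and 200.4 (non-cycling) CPM in KO (-3.17) and at 57.8 (cycling) and 129 (non-cycling) CPM in WT (-1.16). Cdkn2a, an inhibitor of cell cycle kinases, was higher in cycling cells, with log2 ratios of 1.92 in KO (0.91 to 3.02) and 4.46 in WT (2.71 to 6.85, from 3 UMIs in non-cycling cells).

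Type I interferon response genes were also lower in cycling cells. In KO, 26 of 26 measured genes were lower and 0 higher (median -2.05, summed 1493 CPM in cycling and 3546 CPM in non-cycling cells), and in WT 18 of 28 were lower and 0 higher (median -0.70, 2377 (cycling) and 3486 (non-cycling) CPM). Ifit3, an antiviral protein, was at 2.90 (cycling) and 95.1 (non-cycling) CPM in KO (-5.04, -7.33 to -3.46, from 3 UMIs in cycling cells) and at 25.9 (cycling) and 59.7 (non-cycling) CPM in WT (-1.21). Irf7, an amplifier of the response, had log2 ratios of -3.01 in KO and -1.09 in WT. With each CD8 cell thinned to 3000 UMIs, the median cell held 4 UMIs of this list in cycling and 7 in non-cycling KO cells, and 6 (cycling) and 8 (non-cycling) in WT cells. The list of interferon-gamma response genes had 14 of 22 lower in KO (median -0.94) and 8 lower in WT (median -0.43), with 0 higher in either.

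Genes of nucleotide synthesis were mostly higher. The nucleotide and one-carbon list, part of which also serves DNA replication, had 26 of 27 genes higher in KO (median 2.29) and 24 higher in WT (median 1.48). Oxidative phosphorylation genes had 17 of 30 higher in KO (median 0.63) and 3 of 30 higher in WT (median 0.35), a smaller share than the 19.5% of all genes there. Glycolysis genes had 9 of 17 higher in KO (median 0.85) and 6 in WT (median 0.37), with 0 lower. Thinned to 3000 UMIs, the median cell held 19 glycolysis UMIs in cycling and 9 in non-cycling KO cells and 14 (cycling) and 11 (non-cycling) in WT cells. Cycling CD8 cells were deeper than non-cycling ones, at medians of 12169 (cycling) and 5122 (non-cycling) UMIs in KO and 7311 (cycling) and 4897 (non-cycling) UMIs in WT, and the part of cell size in these differences was not tested.

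Several inhibitory receptors and effector genes were higher in cycling cells. Pdcd1, which encodes PD-1, was at 332 CPM in cycling and 145.5 CPM in non-cycling KO cells (1.19) and at 203 (cycling) and 60.2 (non-cycling) CPM in WT cells (1.75). Havcr2, which encodes TIM-3, had log2 ratios of 1.26 in KO and 2.14 in WT, and the granule protease Gzmb 0.95 in KO and 0.64 in WT. The co-stimulatory receptor Tnfrsf9 (4-1BB) had 1.45 in KO and 3.09 in WT, and Il2ra, the high-affinity part of the interleukin-2 receptor, was at 78.3 (cycling) and 37.0 (non-cycling) CPM in KO (1.08) and at 49.5 (cycling) and 10.0 (non-cycling) CPM in WT (2.31). The chemokine Ccl5 was lower in cycling cells, at 3046 (cycling) and 13390 (non-cycling) CPM in KO (-2.14) and 7264 (cycling) and 18850 (non-cycling) CPM in WT (-1.38). Over the list, 5 of 11 inhibitory receptors were higher in each library, and 2 in KO and 1 in WT were lower.

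**Figure D2:**
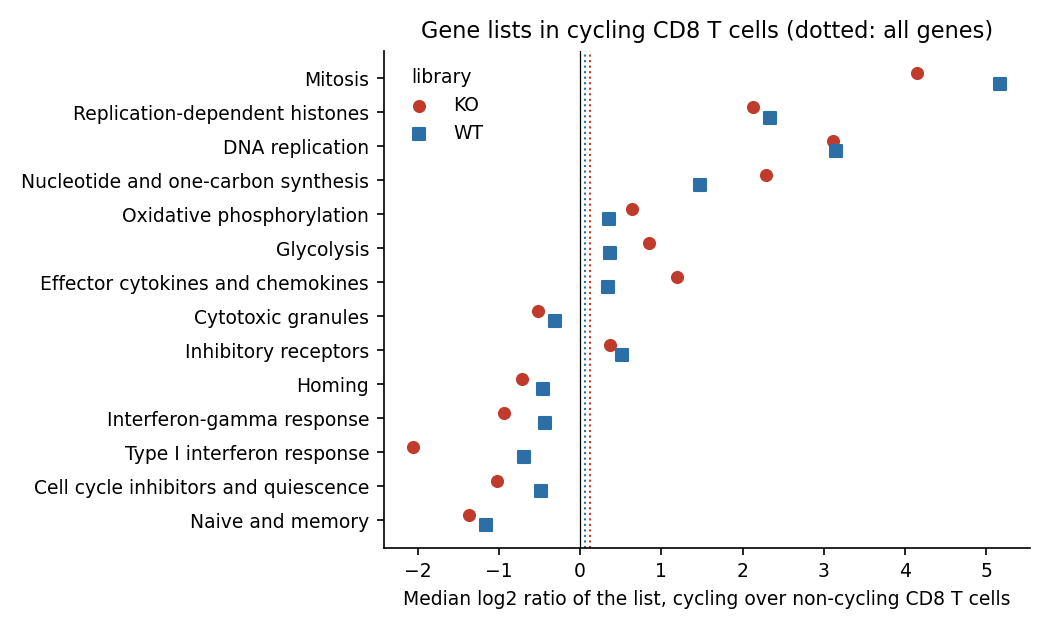
Median log2 ratio of each gene list in cycling over non-cycling CD8 T cells (x axis), KO in red circles and WT in blue squares, with dotted lines at the median of all genes (0.12 in KO and 0.05 in WT). Cell cycle and synthesis lists lie right of 0, and naive and memory, quiescence and type I interferon lists lie left of it in both libraries.

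The third question is how KO and WT cycling T cells differed. Of 3002 genes with a mean of at least 50 CPM, 231 were at least 1.5-fold higher (7.69%) and 202 lower (6.73%) in KO than in WT cycling T cells. With the melanoma-bearing barcodes kept, 162 of 3104 were higher (5.22%) and 165 lower (5.32%), and pigment cell genes such as Mitf and Pax3 were then among the 12 lowest. Genes of regulatory T cells were mostly higher. Of 17 measured genes of that list 14 were higher and 0 lower, with a median log2 ratio of 1.27 and summed levels of 2851 CPM in KO against 1307 CPM in WT cells. Over all genes with at least 20 UMIs the median was -0.01, with 11.2% higher and 13.2% lower.

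Foxp3 itself was at 61.2 CPM in KO against 10.5 CPM in WT cycling T cells, a log2 ratio of 2.55 (1.90 to 3.25). Ikzf2, which encodes the Foxp3 partner Helios, was at 492 CPM in KO against 137 CPM in WT (1.84, 1.66 to 2.03) and had UMIs in 71 KO and 81 WT cells. The co-inhibitory receptor Ctla4 was at 420 CPM in KO against 157 CPM in WT (1.42), the co-stimulatory receptor Tnfrsf4 (OX40) at 414 (KO) and 133 (WT) CPM (1.64), and Il2ra at 94.01 (KO) and 45.6 (WT) CPM (1.04). Izumo1r, the folate receptor 4 of regulatory T cells, was at 41.6 CPM in KO against 10.0 CPM in WT (2.05). The share of cells with Foxp3 and the transcript per cell both enter these sums and were not told apart. In cycling CD8 cells, where no KO cell held a Foxp3 UMI, the median of the regulatory T cell list was 0.63. It ranged from 0.53 to 1.09 over 12 settings, and the median of all genes with at least 20 UMIs there was -0.03.

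Other genes led by the size of their ratio. Ccr7, the receptor that guides cells to lymph nodes, was at 249.9 CPM in KO against 47.3 CPM in WT (2.40), with UMIs in 44 KO and 45 WT cells. Tfrc, the transferrin receptor for iron uptake, was at 144.5 CPM in KO against 35.1 CPM in WT (2.04), a ratio that was 0.46 under a limit of 5 UMIs on Cd74 and H2-Aa. In cycling CD8 cells Tfrc had a log2 ratio of -0.74 (-3.08 to 0.93) at up to 10000 UMIs per cell, from 3 KO and 34 WT UMIs, and 2.24 (1.72 to 2.80) above that. The other leading genes included Itgav, the integrin alpha V chain, at 190.5 (KO) and 58.6 (WT) CPM (1.70), and Nr4a3, a factor induced by antigen receptor signals, at 120.5 (KO) and 41.0 (WT) CPM (1.56). Xcl1, which attracts type 1 dendritic cells, was at 717 CPM in KO against 238 CPM in WT (1.59). This ratio ranged from 0.06 to 1.93 over 12 settings. The share of cells with an Xcl1 UMI had a log2 ratio of 0.30 (-0.45 to 1.02), an interval that includes 0. The granzyme gene Gzmf (142 CPM in KO against 7.53 CPM in WT) came from only 5 KO and 4 WT cells, and Csf2 (90.2 (KO) and 20.1 (WT) CPM) from 8 KO and 12 WT cells, 1 of which held 72.7% of the KO UMIs.

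On the lower side, the granule protease Gzma was at 132.5 CPM in KO against 591.5 CPM in WT (-2.16, -2.37 to -1.95), with UMIs in 17 KO and 99 WT cells. Cx3cr1, a receptor of effector and memory cells, was at 21.5 CPM in KO against 95.4 CPM in WT (-2.15), the chemokine Ccl5 at 2417 (KO) and 6895 (WT) CPM (-1.51), and the heat shock gene Hspa1b at 139 (KO) and 458 (WT) CPM (-1.72). The interferon-inducible genes Ifi208 (22.7 CPM in KO against 81.6 CPM in WT, -1.84) and Epsti1 (209.5 (KO) and 575 (WT) CPM, -1.46) were lower as well. Mcpt4 and Cma1, mast cell proteases, had the lowest ratios only through 1 WT cell, which held 99.8% and 99.6% of their WT UMIs. Of the 8 listed genes of gamma-delta T cells 3 had at least 20 UMIs, and those 3 receptor genes were higher (Trdc, Tcrg-C1 and Tcrg-C2). Trdc was at 44.2 CPM in KO against 2.51 CPM in WT, from only 5 KO and 4 WT cells, and the interval of the ratio of its share of cells includes 0, at 1.82 (-0.39 to 4.16).

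To hold the subset fixed, cycling CD8 cells were compared alone. Of 2996 genes, 338 were higher (11.3%) and 269 lower (8.98%) in KO, against 65 of 2645 higher (2.46%) and 43 lower (1.63%) in non-cycling CD8 cells, which were more numerous. With the melanoma-bearing barcodes kept, 291 of 3046 were higher (9.55%) and 299 lower (9.82%), with pigment genes such as Dct, Pmel and Tyrp1 among the 8 lowest.

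The depth of the cells differed and has to be read beside every value of this comparison. Above 10000 UMIs lay 62.3% of KO cycling CD8 cells (49.0 to 74.4, 38 of 61) and 28.1% of WT cycling CD8 cells (22.2 to 34.6, 61 of 217), but only 4.61% of KO and 2.09% of WT non-cycling CD8 cells. Summed levels therefore weigh deep cells more in KO. The comparison was repeated within cells of at most 10000 UMIs (23 KO cells with a median of 5897 UMIs and 156 WT cells with a median of 6036.5) and above it (38 KO cells with a median of 19034 and 61 WT cells with a median of 13588), a split chosen after seeing the data.

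**Figure D3:**
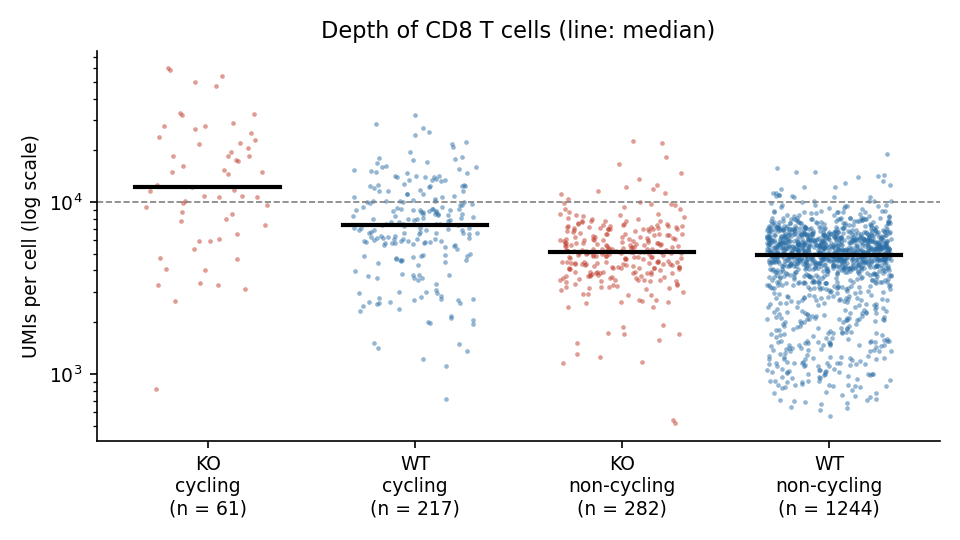
UMIs per cell (log axis) of cycling and non-cycling CD8 T cells in the KO (red) and WT (blue) libraries, each point 1 cell, the black line the median and the dashed line 10000 UMIs. Cycling KO cells have a median of 12169 UMIs against 7311 in cycling WT cells, while the non-cycling medians are 5122 in KO and 4897 in WT.

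Mitosis genes were lower in KO cycling CD8 cells in both depth bands. Of 52 measured genes of that list, 15 were lower and 0 higher (median -0.42, summed 6973 CPM in KO against 9012 CPM in WT), where 13.2% of all genes with at least 20 UMIs were higher, 16.9% were lower and their median was -0.03. Anln, a scaffold of the cleavage furrow, was at 17.4 CPM in KO against 37.4 CPM in WT (-1.10), Kif4, a chromosome motor, at 47.4 (KO) and 82.6 (WT) CPM (-0.80), and Aurkb, the kinase that works with Birc5, at 53.2 (KO) and 80.4 (WT) CPM (-0.60). In cells of at most 10000 UMIs the list summed to 6279 CPM in KO against 8019 CPM in WT (-0.35, -0.46 to -0.25) and in deeper cells to 7075 (KO) and 9995 (WT) CPM (-0.50). The rule used 3 genes of mitosis, so these list values are a description, and depth was not equal within the deeper band. Over all cycling T cells, by contrast, the list was near even, with 1 higher and 1 lower of 52 and a median of -0.06.

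Replication-dependent histone genes, whose messages are made in S phase, were lower too, with 10 of 15 lower and 0 higher (median -0.72). Their sums were 3441 CPM in KO against 4817 CPM in WT in shallower cells (-0.49) and 3981 (KO) and 6632 (WT) CPM in deeper cells (-0.74). Histone messages mostly lack poly(A) tails, so their capture by a 3' kit is partial. DNA replication genes were not lower, with 5 of 40 higher and 0 lower (median 0.14). Mcm2 and Mcm5, subunits of the replicative helicase, were at 91.8 CPM in KO against 59.5 CPM in WT (0.63) and at 178 (KO) and 116 (WT) CPM (0.62). The replication list was higher in KO in shallower cells, at 4412 CPM against 3378 CPM in WT (0.39), and even in deeper cells (-0.01).

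Cell by cell, mitosis was set against replication. With cells thinned to 3000 UMIs, 55.8% of KO (45.2 to 66.0, 53 of 95) and 73.3% of WT cycling T cells (67.3 to 78.7, 181 of 247) held more mitosis than replication UMIs, and among CD8 cells 47.5% of KO (34.3 to 60.9, 28 of 59) and 72.0% of WT (65.0 to 78.4, 134 of 186). A deep cell can reach 3 cycling UMIs at a lower proportion of its total. With the rule applied after thinning the shares were 68.8% of KO (53.7 to 81.3, 33 of 48) and 78.5% of WT (71.1 to 84.8, 117 of 149), with overlapping intervals, and 69.2% of KO (48.2 to 85.7) and 77.6% of WT (68.9 to 84.8) for CD8 cells.

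**Figure D4:**
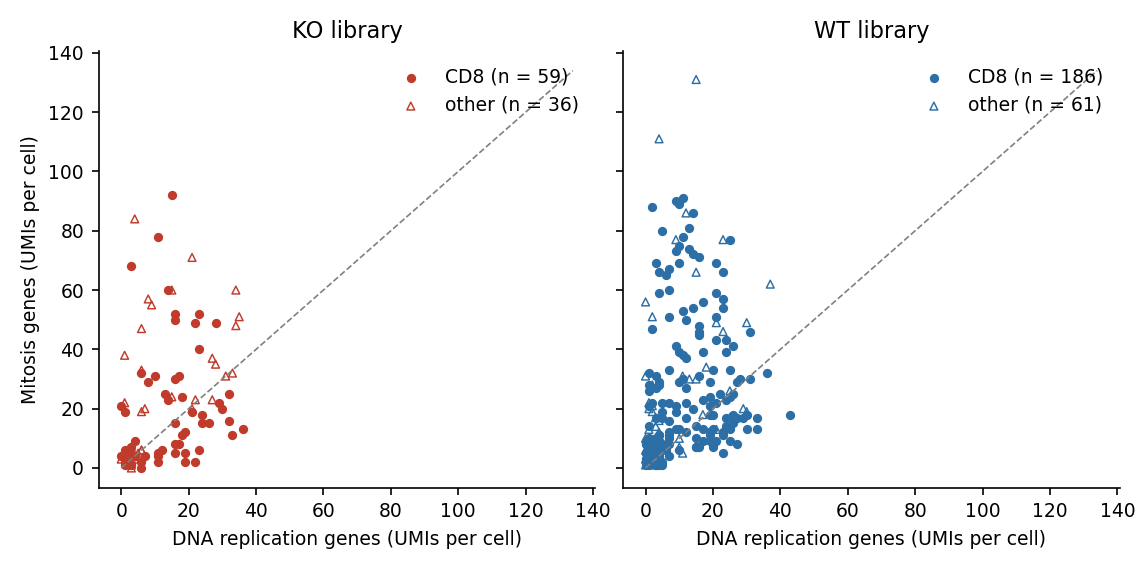
UMIs of the mitosis list (y axis) against UMIs of the DNA replication list (x axis) per cycling T cell thinned to 3000 UMIs, KO in the left panel and WT in the right, filled circles for CD8 cells and open triangles for others, with the line of equal counts dashed. In KO 53 of 95 cells lie above the line and in WT 181 of 247.

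Type I interferon response genes were lower in KO cycling CD8 cells, with the lower sum in the deeper band and an interval that includes 0 in the shallower one. Over all cycling CD8 cells 19 of 23 measured type I interferon response genes were lower and 0 higher in KO (median -1.29, 1493 CPM in KO against 2377 CPM in WT), while in non-cycling CD8 cells 0 of 28 were lower and 3 higher (median 0.02, 3546 (KO) and 3486 (WT) CPM), where 8.75% of all genes were higher and 9.46% lower. Ifit3 had 3 UMIs in KO and 47 in WT, at 2.90 (KO) and 25.9 (WT) CPM (-3.16, -5.49 to -1.52), and Isg15, a ubiquitin-like antiviral protein, was at 14.5 (KO) and 50.6 (WT) CPM (-1.80). In cells of at most 10000 UMIs the list summed to 2605 CPM in KO against 2580 CPM in WT (0.01, -0.15 to 0.18), and in deeper cells to 1329 (KO) and 2177 (WT) CPM (-0.71, -0.82 to -0.61). Thinned to 3000 UMIs, the median cycling CD8 cell held 4 UMIs of the list in KO and 6 in WT.

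The interferon-gamma response list followed, with 11 of 22 genes lower and 1 higher (median -0.58), a log2 ratio of the sums of -0.06 in shallower cells and -0.45 in deeper ones. Genes of nucleotide and one-carbon synthesis were higher, with 17 of 27 higher and 0 lower (median 0.69). Gart, an enzyme of purine synthesis, was at 81.2 CPM in KO against 29.7 CPM in WT (1.45), Cad, which starts pyrimidine synthesis, at 40.6 (KO) and 15.4 (WT) CPM (1.40), and the mitochondrial one-carbon enzyme Shmt2 at 68.6 (KO) and 30.3 (WT) CPM (1.18). In shallower cells the interval of this list included 0 (2003 CPM in KO against 1941 CPM in WT, 0.04), and in deeper ones it was higher (3870 (KO) and 3154 (WT) CPM, 0.30). Glycolysis genes had 8 of 17 higher and 0 lower (median 0.57), from Hk2 (39.6 CPM in KO against 18.2 CPM in WT, 1.13) to Ldha (1099 (KO) and 780.5 (WT) CPM, 0.49). Their sums were 4389 CPM in KO against 4839 CPM in WT in shallower cells (-0.14) and 8852 (KO) and 6399 (WT) CPM in deeper cells (0.47), and the list median was -0.53 with the melanoma-bearing barcodes kept.

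Chemokine and homing genes gave larger single differences. Among 12 measured effector cytokines and chemokines 8 were higher and 2 lower (median 1.08). Xcl1 was at 1031 CPM in KO against 285 CPM in WT (1.85), Ccl3 at 1416 (KO) and 462 (WT) CPM (1.61), Ifng, which encodes interferon-gamma, at 710 (KO) and 302 (WT) CPM (1.23), and Ccl5 at 3046 (KO) and 7264 (WT) CPM (-1.25). Xcl1, Ccl3 and Ifng were higher in deeper cells and not in shallower ones. In cells of at most 10000 UMIs Xcl1 was at 120 CPM in KO against 247 CPM in WT (-1.03, -1.87 to -0.30) and Ifng at 128 (KO) and 274 (WT) CPM (-1.10, -1.90 to -0.39), against 1165 (KO) and 323 (WT) CPM (1.85) and 795 (KO) and 328.5 (WT) CPM (1.28) in deeper cells. Homing genes had 8 of 13 lower and 0 higher (median -0.79), among them Ccr2, the receptor for inflammatory sites, at 84.1 CPM in KO against 293 CPM in WT (-1.80), S1pr1, the exit receptor, at 27.1 (KO) and 87.5 (WT) CPM (-1.69), and Cxcr3, a receptor for interferon-induced chemokines, at 54.1 (KO) and 152.5 (WT) CPM (-1.49). By depth, Ccr2 had -0.49 (-1.05 to 0.02) in shallower and -1.95 (-2.41 to -1.51) in deeper cells, and S1pr1 -0.28 (-1.28 to 0.59) in shallower and -1.89 (-2.78 to -1.07) in deeper cells. Without melanoma-bearing barcodes and cells above 20000 UMIs Ccr2 was at -0.97. Ccr7 stood at 350 CPM in KO against 51.2 CPM in WT (2.77), at 30.1 (KO) and 56.4 (WT) CPM (-0.91, -2.84 to 0.54) in shallower cells and at 397 (KO) and 46.0 (WT) CPM (3.11) in deeper cells. Ccr7 also marks migratory dendritic cells. Other markers of those cells were low but likewise higher in CPM in KO, with Ccl22 at 4.83 CPM in KO (5 UMIs) against 2.75 CPM in WT (5 UMIs), Fscn1 at 2.90 CPM in KO (3 UMIs) against 1.10 CPM in WT (2 UMIs) and Zbtb46 at 7.73 CPM in KO (8 UMIs) against 3.30 CPM in WT (6 UMIs), and their part in the Ccr7 level was not tested.

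Of the genes followed through the depth bands, Gzma, Ikzf2, Nr4a3 and Ccl5 differed the same way in both, with intervals that leave out 0. Ccl5 had log2 ratios of -0.23 (-0.32 to -0.14) in shallower and -1.06 (-1.13 to -0.98) in deeper cells. Gzma was at 199 CPM in KO against 672 CPM in WT cycling CD8 cells (-1.75), with log2 ratios of -1.87 (-2.53 to -1.27) in shallower and -1.81 (-2.06 to -1.57) in deeper cells. Ikzf2 was at 253 CPM in KO against 107 CPM in WT (1.25), with 0.96 (0.20 to 1.66) and 1.05 (0.73 to 1.39) in the bands. Nr4a3 was at 170 CPM in KO against 46.2 CPM in WT (1.88), with 1.15 (0.30 to 1.94) and 2.46 (1.89 to 3.09). By cells, Ikzf2 UMIs were found in 67.2% of KO (54.0 to 78.7) and 22.6% of WT cycling CD8 cells (17.2 to 28.7), and in 45.8% of 59 KO and 16.7% of 186 WT cells thinned to 3000 UMIs, which left out 2 KO and 31 WT cells, while B cells held them in 2.06% (KO) and 0.837% (WT). Gzma UMIs were in 18.6% of KO and 29.6% of WT thinned cells, and in 1.82% (KO) and 1.83% (WT) of thinned B cells. For Gzma the interval of the ratio of these shares includes 0, at -0.67 (-1.75 to 0.28), and its log2 ratio of CPM was -0.76 without melanoma-bearing barcodes and cells above 20000 UMIs. The differences of Gzma, Ikzf2 and Nr4a3 had the same sign in non-cycling CD8 cells, with Gzma at 350.0 CPM in KO against 855 CPM in WT (-1.29), Ikzf2 at 172 (KO) and 61.2 (WT) CPM (1.49) and Nr4a3 at 61.3 (KO) and 34.5 (WT) CPM (0.83). Ccl5 was lower in KO there as well, by its non-cycling levels given further above.

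**Figure D5:**
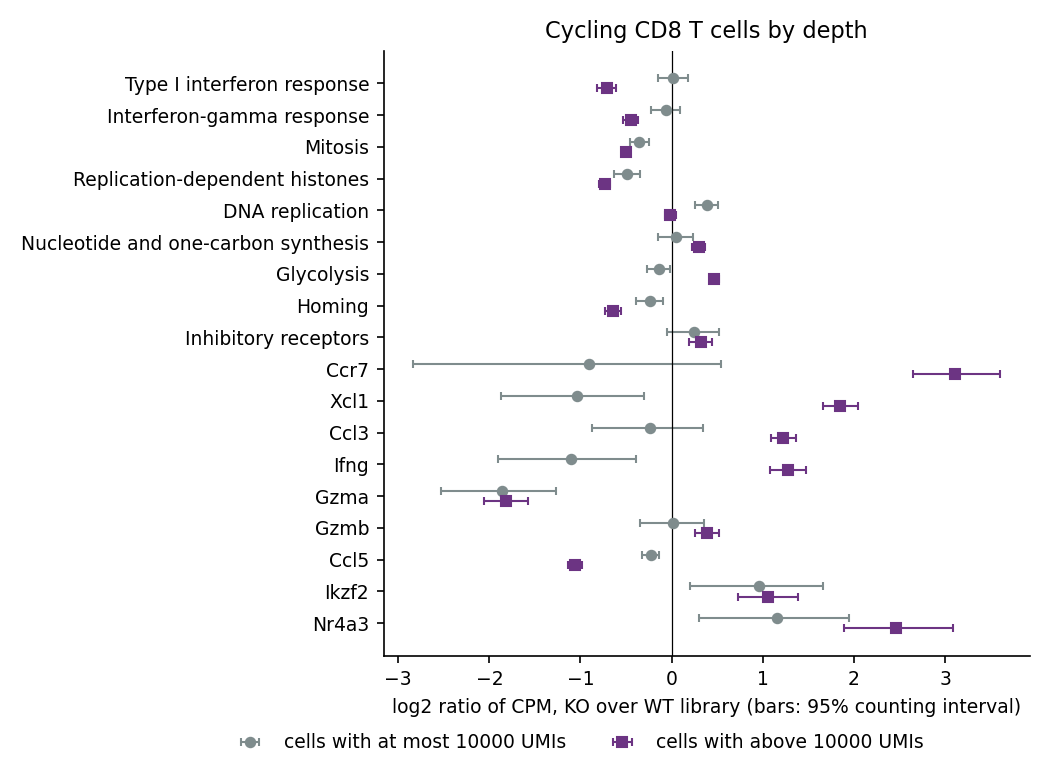
log2 ratio of CPM of KO over WT (x axis, bars the 95% counting interval) for gene lists and single genes in cycling CD8 T cells of at most 10000 UMIs (grey circles) and above 10000 UMIs (purple squares). Interferon lists lie near 0 in shallower and left of it in deeper cells, and Xcl1, Ifng and Ccr7 lie on opposite sides of 0 in the bands, whereas Gzma, Ccl5, Ikzf2, Nr4a3 and the mitosis and histone lists keep their side.

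Inhibitory receptors were mostly within 1.5-fold. Of 11 measured, 3 were higher (Cd200, Ctla4 and Pdcd1) and 2 lower (Vsir and Cd101), with a median of 0.31. Pdcd1 was at 332 CPM in KO against 203 CPM in WT (0.71), found in 49.2% of KO and 30.1% of WT thinned cells, against 0.909% (KO) and 0.367% (WT) of thinned B cells. Lag3 was at 188.5 CPM in KO against 138 CPM in WT (0.45), Havcr2 at 165 (KO) and 124 (WT) CPM (0.41) and Tigit at 15.5 (KO) and 14.9 (WT) CPM (0.06). Among transcription factors of exhausted and effector cells 9 of 19 were higher and 2 lower (median 0.48), with Irf8 at 299 CPM in KO against 103 CPM in WT (1.54), Tox at 207 (KO) and 117 (WT) CPM (0.83) and Eomes at 79.3 (KO) and 42.4 (WT) CPM (0.90). Irf8 had -0.45 (-1.56 to 0.49) in the shallower cells and 1.69 (1.35 to 2.04) in the deeper ones. Of 16 cytotoxic granule genes 6 were higher and 3 lower (median 0.28), among the higher the pore-forming Prf1 at 270 (KO) and 125 (WT) CPM (1.11). Gzmb was within 1.5-fold, at 1116 CPM in KO against 757 CPM in WT (0.56). By depth it had 0.01 (-0.34 to 0.35) in the shallower cells and 0.39 (0.26 to 0.52) in the deeper ones.

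Cycling Cd4 cells were few, 21 in KO and 27 in WT without melanoma-bearing barcodes, and 464 of 2997 genes were higher (15.5%) and 396 lower (13.2%). Their make-up differed, since Cd4 cells with Foxp3 took a larger share of KO cycling T cells (log2 ratio 3.24, 1.28 to 5.74). The log2 ratio for Cd4 cells without Foxp3 was 0.38 (-0.80 to 1.46). Depth differed too, at medians of 11298 UMIs in KO and 6348 in WT. The part of make-up and depth in the values below was not tested. Regulatory T cell genes led, with 10 of 12 higher and 0 lower (median 1.64, 5360 CPM in KO against 1929 CPM in WT), where 17.4% of all genes with at least 20 UMIs were higher, 13.7% were lower and the median was 0.03. Foxp3 was at 160 CPM in KO against 42.7 CPM in WT (1.91, 0.84 to 3.14), Ikzf2 at 943 (KO) and 204 (WT) CPM (2.21) and Ctla4 at 824 (KO) and 180 (WT) CPM (2.19). Type I interferon genes were split, with 2 of 12 higher and 3 lower (median 0.07), and interferon-gamma response genes were higher, with 9 of 19 higher and 0 lower (median 0.53). Iigp1, an interferon-induced GTPase, was at 373 CPM in KO against 66.3 CPM in WT Cd4 cells (2.49) but had 1 UMI in KO and 30 in WT cycling CD8 cells. Effector cytokines and chemokines had 0 of 7 higher and 6 lower (median -1.56), including Ifng at 115 CPM in KO against 588 CPM in WT, where 1 WT cell held 46.8% of the UMIs.

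Of 10 listed genes of potassium channels and their relatives, 5 had at least 20 UMIs in cycling T cells. Of these 5, 1 was higher in KO (the non-coding Kcnq1ot1) and 2 were lower (Kcnk5 and Kctd12). Of all genes with at least 20 UMIs there, 11.2% were higher and 13.2% lower, and 5 genes are too few to set against these shares. The summed levels of the list were 287 CPM in KO against 233 CPM in WT. Kcnj2 was found in 0 of 100 KO cells, which allows a share of up to 3.0%, and 0 of 283 WT cells, which allows up to 1.06%. These limits concern cells with a UMI, since a cell can express the gene and yield none. Kcnn4, the calcium-activated channel that T cells raise on activation, was found in 38.0% of KO and 20.1% of WT cycling T cells at their own depth, but in 8.42% of KO and 11.7% of WT cells thinned to 3000 UMIs. In B cells it was found in 4.72% (KO) and 7.16% (WT) at their own depth and in 3.18% (KO) and 5.87% (WT) after thinning. In cycling CD8 cells it was at 28.03 CPM in KO against 28.07 CPM in WT (0.00). Kcna3, the voltage-gated channel Kv1.3, was found in 3.0% of KO and 3.53% of WT cycling T cells, and in 0.295% of KO and 0.744% of WT B cells.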

How the data were processed

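Gene expression was measured with the 10x Chromium 3' v3 kit in CD45+ cells of 1 KO and 1 WT library. The deposited matrices hold raw UMI counts from the authors, with no normalization, for 55450 genes, and the smallest barcode total was 500 UMIs. Per the submitters' processing notes, bcl2fastq 2.20, Cell Ranger 3.1.0, Seurat 4.0.1 and build GRCm38 were used, while the matrix header names Cell Ranger 4.0.0. Which version made the counts could not be told.

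Filtering kept barcodes with 200 or more genes and no more than 15% mitochondrial UMIs. Doublets stayed in: Scrublet (scanpy 1.11.5) at its own threshold marked 2 KO and 0 WT cells and had therefore not worked. The marker limits of the rule stand in for it, though the melanoma-bearing barcodes passed them. An alternative removed the 6% highest scores. These held 0 of the melanoma-bearing barcodes in either library, so this alternative cannot show what such barcodes do to a result. UMIs were summed over cells and scaled to CPM (Python 3.11.15, numpy 2.4.6, scipy 1.17.1, pandas 2.3.3, matplotlib 3.10.9). Shares carry exact Clopper-Pearson intervals, CPM exact Poisson intervals and log2 ratios exact conditional binomial intervals. The intervals of log2 ratios of CPM were tested on simulated Poisson counts, the model they assume. UMIs that gather in single cells were not simulated, so the simulation cannot say how the intervals hold for them. Where a library had 0 counts, 3 counts were the floor. TMM factors came from edgeR 4.0.16. No p-values were computed, since cells are not replicates.

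Genes counted as higher or lower had a ratio of at least 1.5-fold and a mean of at least 50 CPM, or, in lists, at least 20 UMIs over both sets. Named genes were the 12 highest and 12 lowest in cycling T cells, the 8 highest and 8 lowest in cycling CD8 cells, the 12 highest and 12 lowest cycling over non-cycling, up to 4 per list, and members described for their role. Immunoglobulin, receptor variable, ribosomal, mitochondrial, haemoglobin and sex-linked genes were left out of the rankings. Where pigment genes or single cells filled a ranking, values without the melanoma-bearing barcodes were used. The cells, the gene lists and the promoters shown were chosen with earlier results of these data known.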

Additional observations from a re-analysis of the deposited data

Results flagged for a closer look

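Tnf, which encodes tumour necrosis factor, differed between KO and WT in opposite directions in 2 sets of CD8 cells. In cycling CD8 cells it stood at 33.8 CPM in KO against 71.0 CPM in WT, a log2 ratio of -1.07 (-1.65 to -0.52). In non-cycling CD8 cells it stood at 93.8 CPM in KO against 56.3 CPM in WT, a log2 ratio of 0.74 (0.45 to 1.02). It was the 1 gene with ratios past 1.5-fold in opposite directions and intervals that leave out 0, among 208 list and named genes examined in both sets. Depth differed between KO and WT cycling CD8 cells, and Tnf was not followed through the depth bands. With 1 library per genotype the difference between the sets was not tested.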

How the results depend on the processing

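With 1 library per genotype, depth and library cannot be told apart from genotype. No paired analysis was possible because each group has a single library. The log2 ratio of the share of T cells that were cycling ranged from -0.38 to 0.04 over 10 alternatives, with -0.38 (7.18% of KO and 9.32% of WT T cells) under a limit of 5 UMIs on Cd74 and H2-Aa. That of the CD8 share ranged from -0.52 to -0.22 and that of the Foxp3 share from 1.78 to 2.67. Under that limit the Foxp3 share was 9.23% in KO and 2.68% in WT, with an interval of -0.07 to 3.58 that includes 0. With at least 2 UMIs of the 3 cycling genes the log2 ratio of the CD8 share was -0.50 (-0.87 to -0.14), an interval that leaves out 0. Thinning was applied to shares and to UMIs per cell, not to summed levels.

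Counts in this paragraph keep the melanoma-bearing barcodes unless stated. For cycling T cells the count of 327 genes past 1.5-fold was 433 without those barcodes, 269 also without cells above 20000 UMIs, 828 with a mean of at least 20 CPM and 2576 without that filter. For cycling CD8 cells the count of 590 was 358 under the limit of 5 UMIs, 364 without cells above 40000 UMIs, 1415 at 20 CPM and 3272 with no filter. The count past 1.5-fold the same way in both libraries for cycling over non-cycling CD8 cells was 833 with the melanoma-bearing barcodes, 524 without them, 375 also without cells above 20000 UMIs, 472 under the limit of 5 UMIs, 508 without cells above 40000 UMIs, 1572 at 20 CPM, 2479 with no filter, 472 with cells weighted equally and 449 with equal weights and no melanoma-bearing barcodes. At lower expression more genes were tested, and in cycling T cells a larger share of them passed 1.5-fold. Without the melanoma-bearing barcodes, 7.69% of 3002 genes with a mean of at least 50 CPM were higher in KO and 6.73% lower. Of 9479 genes with at least 20 UMIs, 11.2% were higher and 13.2% lower. The causes of the differences between counts were not tested.

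Over 12 settings, 358 of 480 values of 40 named-gene results stayed within the counting interval, 117 moved outside it and 5 changed sign. Csf2 was at -1.15 in cycling T cells and -0.21 in CD8 cells under the limit of 5 UMIs, at -0.25 in cycling T cells without cells above 40000 UMIs and at -0.45 without melanoma-bearing barcodes and cells above 20000 UMIs. Chchd10 was at -0.85 with the melanoma-bearing barcodes. List medians were judged otherwise, by a limit set from the spread of the list's genes. Of 720 values of 60 list medians 645 stayed within it and 75 moved outside it. A change of sign was counted only for medians past 1.5-fold, and 0 were found. Smaller medians did cross 0. In cycling CD8 cells glycolysis (main value 0.57) ranged from -0.53 to 0.59 and oxidative phosphorylation (0.09) from -0.35 to 0.19. The type I interferon median in cycling CD8 cells ranged from -1.32 to -0.65. The mitosis median in cycling T cells ranged from -0.54 to 0.11, which leaves its direction unset.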
